A study of Homo sapiens with 6 samples.

Results

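CIRBP and RBM3 encode the 2 cold-inducible RNA-binding proteins, and they were followed here in SKNBE2 cells, a human neuroblastoma line. The members were every splicing event whose gene symbol was CIRBP or RBM3, which gave 73 of the 721551 events in the table, 42 of CIRBP and 31 of RBM3. The Control group held 3 libraries labelled Control, taken as cells without the drug. The DFMO group held 3 libraries of cells kept for 4 days at 250 µM of DFMO (difluoromethylornithine). DFMO is an inhibitor of ornithine decarboxylase, the enzyme that starts polyamine synthesis. A dose and a day are given for the DFMO libraries alone, so the time for which the Control cells were kept is not known. The labels do not say whether a group's libraries came from separate cultures, and the spread of the replicates may therefore reflect technical variation alone. The pair of genes was chosen with the DFMO and Control values of these libraries known, so their differences are given as a description, with no test.

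CIRBP and RBM3 are small proteins with an RNA recognition motif and a glycine-rich tail, and their messages are known to increase when mammalian cells are cooled mildly and to decrease on warming. Both proteins bind mRNA and are known for roles in mRNA stability, translation and stress granules, and RBM3 also in the maintenance of synapses. Both genes also make minor spliced forms. CIRBP can end in a proximal or in a distal last exon, and RBM3 has an exon, called exon 3a, that brings an early stop codon.

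CIRBP (ENSG00000099622.13) lies on the plus strand at chr19:1259384-1274880 and RBM3 (ENSG00000102317.17) on the plus strand at chrX:48574449-48579066, in GRCh38 with GENCODE release 29. The ends of the CIRBP reading frame are shown first because the junctions to these ends differed in how they compared between the groups. Each line starts with the last 30 bases of the penultimate exon (exon 6), goes on into the last coding exon and ends with the stop codon in capitals. The proximal exon adds chr19:1272427-1272443 and the distal exon adds chr19:1274307-1274311.
CIRBP proximal end: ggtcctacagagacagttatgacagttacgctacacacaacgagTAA
CIRBP distal end: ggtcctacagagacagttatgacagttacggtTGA
The coding sequence with its stop codon is 519 nt in the proximal form (transcript CIRBP-201) and 507 nt in the distal form (CIRBP-222 and CIRBP-210). In CIRBP-210 the distal exon is spliced on to another exon 129 nt after its stop codon, and GENCODE gives that transcript the type nonsense_mediated_decay. GENCODE gives CIRBP-222, which ends in the distal exon, the type protein_coding.

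Exon 3a of RBM3 is shown because it is the exon that ends the reading frame early. The 269-nt form at chrX:48575815-48576083, on the plus strand, is an exon of an RBM3 transcript that GENCODE lists as a processed transcript. The capitals mark the first stop codon in the frame that enters from exon 3, at base 61 of the exon, the first of 9 in that frame.
RBM3 exon 3a: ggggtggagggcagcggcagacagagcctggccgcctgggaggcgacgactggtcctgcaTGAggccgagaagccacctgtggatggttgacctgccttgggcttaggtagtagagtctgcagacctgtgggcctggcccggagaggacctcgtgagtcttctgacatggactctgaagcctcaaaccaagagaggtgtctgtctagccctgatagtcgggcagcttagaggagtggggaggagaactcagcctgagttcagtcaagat
A shorter form of 162 nt, which starts at chrX:48575922, holds no stop codon in that frame.

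Promoter windows are shown because the levels of both genes were higher with DFMO. They hold the 250 bases before each RefSeq start in GRCh38.p14, at chr19:1269082-1269331 for CIRBP and chrX:48574234-48574483 for RBM3. Capitals mark every match, on either strand, to 2 short motifs, the GC box (GGGCGG) and the CCAAT box (CCAAT).
CIRBP promoter: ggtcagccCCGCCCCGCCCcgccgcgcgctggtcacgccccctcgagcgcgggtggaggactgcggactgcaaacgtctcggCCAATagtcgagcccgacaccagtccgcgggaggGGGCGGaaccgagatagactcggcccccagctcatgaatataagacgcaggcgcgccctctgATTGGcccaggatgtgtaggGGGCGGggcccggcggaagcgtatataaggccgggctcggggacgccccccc
RBM3 promoter: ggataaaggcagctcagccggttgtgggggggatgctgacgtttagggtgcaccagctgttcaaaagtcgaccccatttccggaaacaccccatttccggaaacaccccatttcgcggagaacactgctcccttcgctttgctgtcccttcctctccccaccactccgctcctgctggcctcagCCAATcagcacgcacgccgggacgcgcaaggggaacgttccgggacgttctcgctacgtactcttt
The CIRBP window held 4 GC boxes and 2 CCAAT boxes. The RBM3 window held 0 GC boxes and 1 CCAAT box. At least 1 GC box was present in 42.6% and at least 1 CCAAT box in 32% of 35116 RefSeq promoter windows of the same length. An octamer reported for the cold response of CIRBP (TCCCCGCC) was searched in the same way and had 0 matches in either window, against 7.75% of all windows with at least 1. These matches describe letters in a window and say nothing of which factors bind there.

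The levels of both genes were higher with DFMO, that of CIRBP by 1.32-fold and that of RBM3 by 1.21-fold. The level of a gene is the mean, over its exon events, of log2(1 + reads per 1e+06 event reads), so it is built from reads across splice junctions. Each exon event has equal weight, so CIRBP events with few reads count as much as those at its main junctions. A 57-nt exon (chr19:1272969-1273025), for example, had 71 to 93 reads per library in Control and 52 to 90 in DFMO. The CIRBP fold was below the read ratios of 1.45 to 1.65 at its main junctions, which are given below. For CIRBP, over 9 exon events, the level was 3.06, 3.07 and 3.08 in Control replicates 1, 2 and 3 and 3.46, 3.55 and 3.41 in DFMO replicates 1, 2 and 3. The 3 DFMO libraries all lay above the 3 Control libraries, and the group means were 3.07 ± 0.01 and 3.48 ± 0.07 (SD, n = 3 each), a difference of 0.40 on the log2 scale. For RBM3, over 6 exon events, the level was 5.68, 5.64 and 5.71 in Control and 5.95, 5.95 and 5.95 in DFMO. Again no DFMO library overlapped a Control library, and the means were 5.68 ± 0.04 and 5.95 ± 0.0021 (SD, n = 3 each), a difference of 0.28 on the log2 scale. Among all 9232 genes measured in this way, 25.6% had all 3 DFMO levels above all 3 Control levels, and the median difference over all genes was -0.01. A larger difference in the same direction than that of CIRBP was found in 100 genes (1.08%), and than that of RBM3 in 378 genes (4.09%). These shares rest on this level, place the genes in the table they were chosen from and are no test.

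The reads across single junctions showed which spliced forms of CIRBP carried the difference (junction values, unlike the level, are RPM, plain reads per 1e+06 event reads). Intron 3 of CIRBP was spliced out in 28.8, 28.3 and 31.0 RPM in the Control libraries and in 48.2, 45.9 and 45.1 in the DFMO libraries. The 3 DFMO values lay above all Control values, at 1.58 times the Control mean. The junctions over introns 1, 2, 4 and 5 gave ratios of 1.49, 1.56, 1.49 and 1.45, with no overlap between groups at any of them. The intron 4 junction had far fewer reads than that of intron 3, 67 to 128 per library (0.688 to 1.30 RPM). The reason for its low count was not tested. The junction from the penultimate exon to the proximal last exon had 15.4, 15.3 and 14.98 RPM in Control and 24.0, 25.9 and 25.4 in DFMO, a ratio of 1.65.

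The junctions of the distal end of CIRBP did not separate the groups in the same measure. The penultimate exon was joined to the distal exon in 0.836, 0.811 and 0.833 RPM in Control and in 0.680, 0.977 and 0.534 in DFMO. The DFMO values spread on both sides of the Control values, and the ratio of the means was 0.883. The junction from the distal exon to the final distal exon had a ratio of 1.10, and its groups also overlapped. The distal form thus took a smaller share of the splices that leave the penultimate exon for either end. That share was 5.13%, 5.02% and 5.27% in Control and 2.75%, 3.63% and 2.06% in DFMO, so every DFMO library lay below every Control library. The means were 5.14% ± 0.12 and 2.81% ± 0.79 (SD, n = 3 each), and leaving out any 1 library gave differences between -2.73 and -1.95 points. The distal junction rested on 46 to 86 reads per library. These junction shares were computed after the percents of the table had been seen.

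The choice of CIRBP ends also appeared in the percents of the table, but on another scale. The table treats a 97-nt piece of the proximal last exon (chr19:1272427-1272523) as a cassette exon, and its percent was 90.3, 90.5 and 90.0 in Control and 94.7, 93.0 and 96.0 in DFMO. The means were 90.3% ± 0.23 and 94.5% ± 1.49 (SD, n = 3 each). That percent averages an upstream and a downstream junction, whereas a last exon has an upstream junction alone, so the share of splices given above is the closer measure of the choice.

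**Figure D1:**
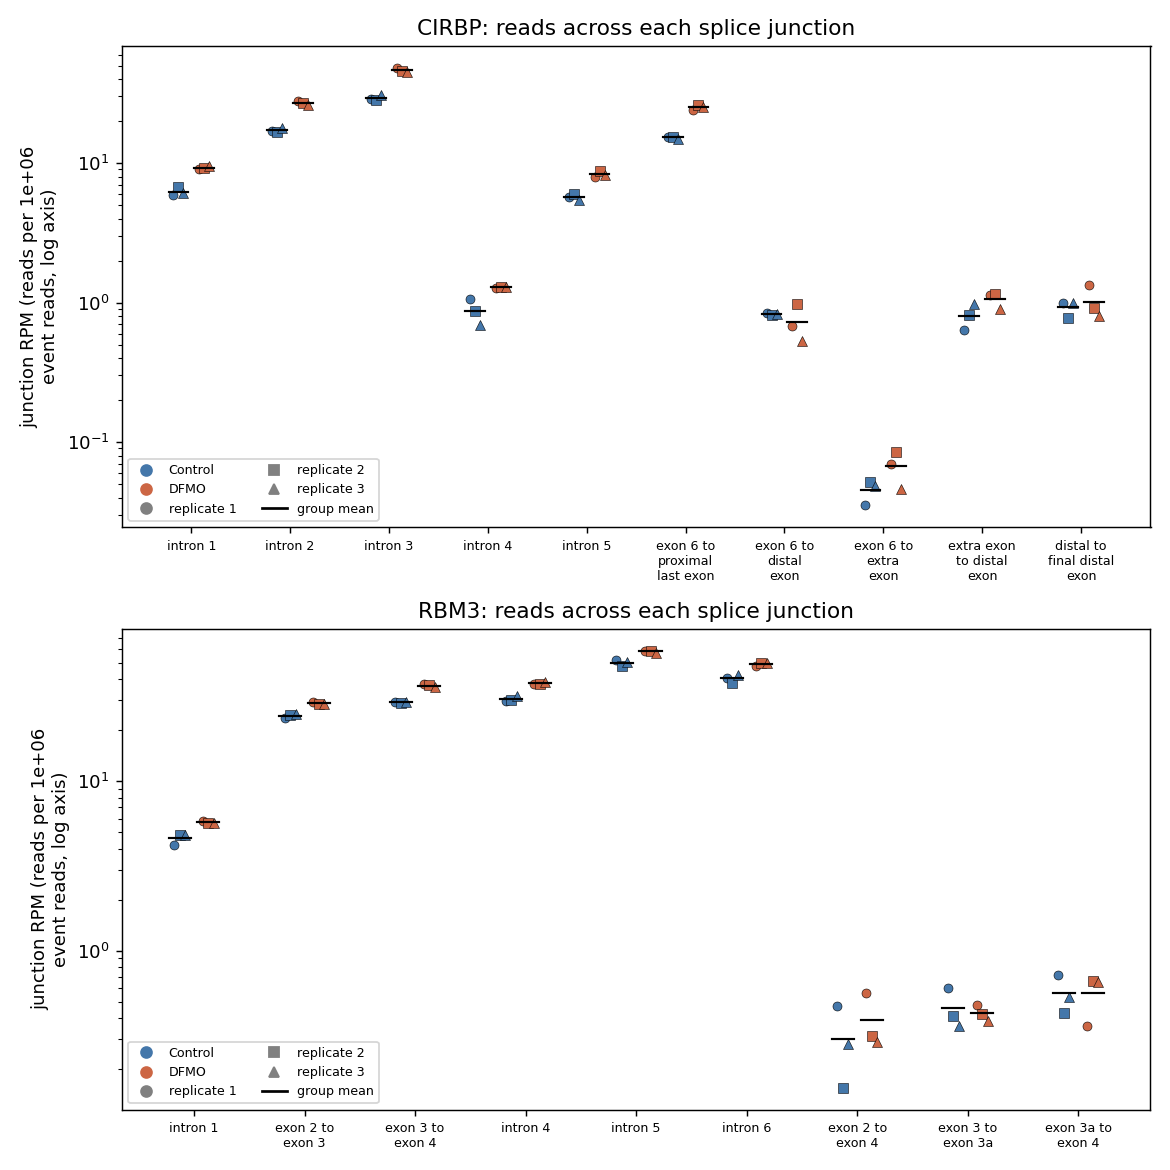
Reads across each splice junction of CIRBP (top) and RBM3 (bottom), in reads per 1e+06 event reads on a log axis, with 1 point per library and a bar at each group mean. DFMO points lie above Control points at the main junctions of both genes, whereas the points of the 2 groups mix at the junctions of the CIRBP distal end and of RBM3 exon 3a.

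A 115-nt exon of CIRBP (chr19:1273601-1273715) lies between the proximal and distal ends and is joined to the distal exon. In transcript CIRBP-237 it holds the stop codon. Its junction with the distal exon had 0.636, 0.811 and 0.969 RPM in Control and 1.13, 1.15 and 0.905 in DFMO, and the groups overlapped. Of the splices that enter the distal exon from the penultimate or the extra exon, the extra exon gave 43.2%, 50% and 53.8% in Control and 62.4%, 54.0% and 62.9% in DFMO. The lowest DFMO value, in replicate 2, lay just above the highest Control value, in replicate 3. The exon's upstream junction had 3 to 7 reads per library against 54 to 113 at the downstream junction, so few of these reads show a join to the penultimate exon. The table's own percent for the exon was 33.1 ± 4.37 in Control and 43.3 ± 4.29 in DFMO (SD, n = 3 each).

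Inside the coding part of CIRBP, an inner donor of exon 4 and the skipping of exon 5 took smaller shares with DFMO. Exon 4 (139 nt, chr19:1271329-1271467) can end early at an inner donor, at base 1271365. That donor was used in 5.20%, 5.97% and 8.91% of the counted splices in Control and in 2%, 0% and 2.19% in DFMO. All 3 DFMO values lay below the Control values, and the full-length donor was used in 92.1% ± 4.08 and 98.1% ± 0.34 (SD, n = 3 each). The difference of 6.02 points at the full-length donor was 3.68 points without Control replicate 3. Intron 3, which ends at exon 4, was spliced in 2196 to 4818 reads per library, far more than were counted out of exon 4. The reason was not tested, and the donor percents hold for the counted reads alone. Between 60 and 120 reads per library stood behind these donor percents. At this depth the 0% of DFMO replicate 2 rests on 95 reads, and a count of 0 allows a share of up to 3.16% (3 counts of the total, for counting error only). Exon 5, listed with 79 nt at chr19:1271554-1271632, was included at 98.2%, 98.7% and 97.5% in Control and at 99.3%, 99.7% and 100% in DFMO. These percents rested on 534 to 650 reads per library in Control and 819 to 923 in DFMO, so few reads showed skipping. The reads were uneven between the sides of exon 5. The intron 4 junction upstream had 67 to 128 per library, and the intron 5 junction downstream had 464 to 792. The effect of the low upstream count on the inclusion percent was not tested. The difference of 1.52 points in exon 5 inclusion was 1.19 without Control replicate 3. The penultimate exon was included at 99.77% in Control and 99.97% in DFMO on average.

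The introns of CIRBP were mostly removed in every library. Intron 1 (1517 nt) had the highest retention percent, 6.66 ± 1.15 in Control and 8.43 ± 1.07 in DFMO (SD, n = 3 each), with overlapping groups. The difference of 1.77 points was 1.16 without DFMO replicate 2. Its reads lay on 1 side: 0 to 2 reads per library crossed the 5′ end of the intron and 65 to 163 the 3′ end, so the percent does not describe a whole retained intron. The other CIRBP introns had mean percents below 4, and intron 6, between the penultimate exon and the proximal last exon, had 3.56 ± 0.37 and 3.40 ± 0.41.

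RBM3 gave a more even picture along the gene. Its exon 3 to exon 4 junction had 29.4, 28.8 and 29.3 RPM in Control and 37.2, 37.0 and 35.7 in DFMO, a ratio of 1.26. The junctions over introns 1, 4, 5 and 6 and from exon 2 to exon 3 gave ratios of 1.24, 1.23, 1.17, 1.21 and 1.18. At each of these 6 junctions the DFMO libraries lay above the Control libraries.

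The junctions of RBM3 exon 3a did not separate the groups. The table names this exon by its 162-nt form and lists the acceptors of both forms for it, so the values cover the forms together. Exon 3 was joined to exon 3a in 0.600, 0.412 and 0.358 RPM in Control and in 0.480, 0.422 and 0.383 in DFMO, a ratio of 0.938. The groups overlapped, and 32 to 51 reads per library stood behind them. The table's inclusion percent for the exon was 2.20, 1.45 and 1.4998 in Control and 1.11, 1.45 and 1.43 in DFMO. The groups touched without crossing, since Control replicate 2 and DFMO replicate 2 had nearly the same value, and the means were 1.72% ± 0.42 and 1.33% ± 0.19 (SD, n = 3 each). As a share of the splices that leave exon 3, exon 3a took 1.54% ± 0.41 and 1.15% ± 0.11, with overlap. Control replicate 1 carried much of both differences: without it the share differed by -0.16 points in place of -0.39, and the table's percent by -0.14 in place of -0.39. Most reads into exon 3a used the acceptor of the long form printed above, 94.98% ± 2.02 in Control and 90.2% ± 6.21 in DFMO, again with overlap. That difference of -4.75 points was -8.28 without DFMO replicate 2 and -2.42 without DFMO replicate 3.

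Other choices in RBM3 were close to complete in both groups. Exon 3 was skipped in 1.24% ± 0.67 of splices from exon 2 in Control and 1.32% ± 0.48 in DFMO (SD, n = 3 each). Retention of intron 6 was 0.53%, 0.34% and 0.40% in Control and 0.34%, 0.31% and 0.28% in DFMO, with the closest values of the groups almost equal. The difference of -0.11 points was -0.06 without Control replicate 1. The intron that holds exon 3a (chrX:48575284-48576313 in the table, 1030 nt) did not reach the coverage score of LOW in Control replicate 2. It is left out because its exclusion reads were those of the exon-3-skipping junction alone.

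**Figure D2:**
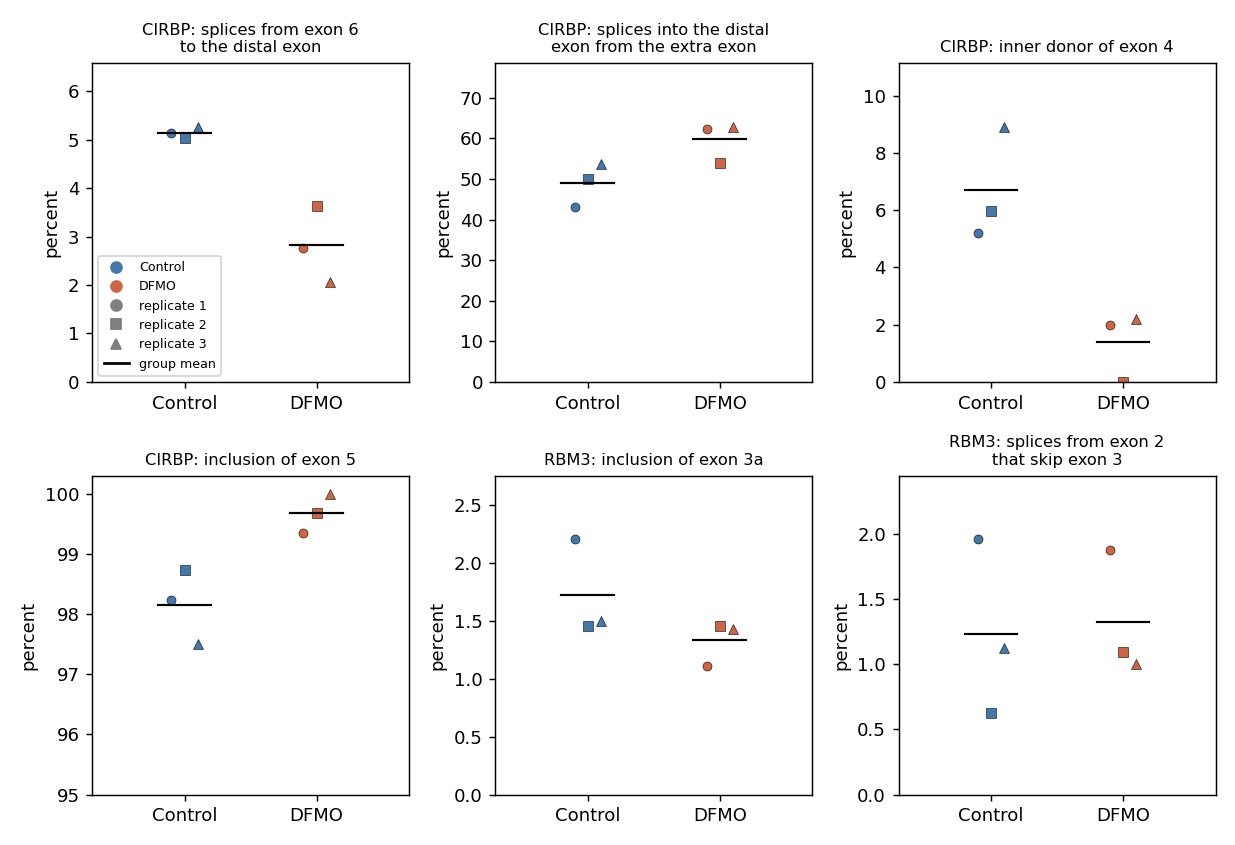
Percent of splices or of inclusion in each library (points) with a bar at each group mean, for 4 choices in CIRBP and 2 in RBM3; the axis for CIRBP exon 5 starts at 95 percent and the others at 0. DFMO points lie apart from Control points in the 4 CIRBP panels, by little for the extra exon, while in the RBM3 panels the groups touch or mix.

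Over all event classes, the 73 events were 15 exons, 11 introns, 22 acceptors and 25 donors. All had reads, and 57 were scored LOW or better in all 6 libraries. With the mirror row of each paired choice removed, 48 remained, 23 of CIRBP and 25 of RBM3. In 43 of these 48 the mean percent was under 5 or over 95, so most of the splice choices in both genes were nearly complete. Percents did not overlap between groups in 6 CIRBP and 2 RBM3 events, 8 in all. The same held for 4.8% of the 271175 scored events of the table, and nothing is read from the members' count because this contrast chose them. The 6 CIRBP events were the exon 5, penultimate exon, proximal end, extra exon and the inner and full donors of exon 4. Of the 48 events, 5 met the filters of the event test (at least 10 reads in each library and a mean percent from 5 to 95).

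The genes around CIRBP and RBM3 were examined in 7 lists, which were tested by limma with Benjamini-Hochberg adjustment over all 9232 genes. Of the 102 listed genes that were measured, 18 rose and 30 fell at an adjusted p below 0.05. Over all genes 20.5% rose and 24.9% fell by the same rule, so calls are common in this table. The lists were drawn up with earlier results of these libraries known. The level differences below are on the same log2 scale as for the members.

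Of 14 genes listed as possible regulators of CIRBP or RBM3, 11 were measured, 2 rose, 2 fell and 7 did not pass, with a list median of 0.04. SRSF5, a splicing factor of the SR family, had levels of 4.23, 4.13 and 4.18 in Control and 4.45, 4.48 and 4.44 in DFMO. It rose by 0.28 (SE 0.03, adjusted p = 2.0e-04, limma), with every DFMO library above every Control library. CLK2, a kinase of SR proteins, rose by 0.23 (SE 0.04), and its relative CLK3 fell by 0.16 (SE 0.03). Without the coverage-score filter CLK3 did not pass (-0.09). HIF1A, the oxygen-regulated transcription factor, fell by 0.30 (SE 0.02, adjusted p = 4.8e-05, limma). Whether HIF1A acts on CIRBP or RBM3 in these cells was not tested.

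HNRNPH1, a splicing repressor reported to act on RBM3 exon 3a, had a level difference of -0.01 (SE 0.03) and did not pass. CLK1 and CLK4, whose products are the temperature-sensing kinases of SR proteins, had differences of 0.06 (SE 0.03) and 0.00028 (SE 0.03). SP1, a factor that binds GC boxes, had 0.05 (SE 0.05), and 0.01 without Control replicate 3, 0.02 without DFMO replicate 2, 0.11 without DFMO replicate 1 and 0.09 with scaling to exon event reads. Of these, HNRNPH1 and CLK4 changed sign under other settings. CLK1 was changed in splicing: its 91-nt exon (chr2:200860125-200860215) was included at 39.4%, 36.7% and 36.8% in Control and at 18.8%, 17.2% and 15.8% in DFMO. All DFMO values lay below the Control values, and the fall of 20.3 points passed (adjusted p = 1.5e-04, limma).

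Reported targets of the 2 proteins did not pass in either direction. Of 10 genes, 6 were measured, with a median of -0.04, and 0 passed by limma, while 1 had an unadjusted p below 0.05. RTN3, an endoplasmic reticulum protein whose translation RBM3 is known to promote, was at 2.20, 2.35 and 2.28 in Control and 2.39, 2.32 and 2.51 in DFMO. Its difference of 0.13 (SE 0.05) had an adjusted p of 0.075 (limma) with overlapping groups. It passed without DFMO replicate 2 (0.18) and with median-of-ratios scaling (0.15), and the difference was 0.08 without DFMO replicate 3.

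Genes of the heat shock list, only some of which respond to warming, were lower in most cases. Of 22 genes 16 were measured, 12 fell, 4 did not pass and 0 rose by limma (0 higher at an unadjusted p below 0.05 either), with a median of -0.26 against -0.01 for all genes. HSPH1, a nucleotide exchange factor of HSP70, was at 3.29, 3.30 and 3.33 in Control and 2.83, 2.84 and 2.88 in DFMO, and fell by 0.46 (SE 0.03, adjusted p = 1.6e-05, limma). DNAJB6 and DNAJB1, co-chaperones of HSP70, fell by 0.51 (SE 0.04) and 0.47 (SE 0.05), and HSPD1, the mitochondrial chaperonin, fell by 0.35 (SE 0.05). The last 3 genes were each measured by 1 exon event. Without the coverage-score filter their differences were -0.08, -0.23 and -0.11, and DNAJB6 no longer passed.

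Relatives with a similar RNA-binding domain moved both ways. Of 25, 22 were measured, 4 rose, 8 fell and 10 did not pass, with a median of -0.04. HNRNPDL, an hnRNP D-like protein, was at 5.05, 5.03 and 4.995 in Control and 4.75, 4.76 and 4.73 in DFMO and fell by 0.28 (SE 0.02, adjusted p = 7.2e-05, limma). TARDBP, HNRNPAB and SRSF1 fell by 0.19, 0.18 and 0.17. TARDBP did not pass without Control replicate 2, DFMO replicate 2 or DFMO replicate 3 (-0.17, -0.16 and -0.16). The number that rose was 1 without Control replicate 3, without DFMO replicate 1 or without the coverage-score filter, and 2 without Control replicate 2, DFMO replicate 2 or DFMO replicate 3. The number that fell was 5 without DFMO replicate 3.

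Genes of nonsense-mediated decay, the pathway that removes messages with early stop codons such as that of exon 3a, rose more often than they fell. Of 18 genes 16 were measured, 7 rose, 1 fell and 8 did not pass, with a median of 0.09. MAGOH, an exon junction complex subunit, rose by 0.25 (SE 0.04), UPF3B, which links that complex to UPF2, by 0.22 (SE 0.04), and SMG9, a subunit of the SMG1 kinase complex, by 0.16 (SE 0.03). EIF4A3, the helicase core of the exon junction complex, fell by 0.14 (SE 0.03). The number that rose was 4 without Control replicate 2 or DFMO replicate 1, and the number that fell was 2 without Control replicate 3.

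The clock genes, whose transcripts CIRBP is known to bind, and the stress granule proteins were also divided. Of 23 clock genes 13 were measured, 2 rose, 4 fell and 7 did not pass (median -0.02). The clock repressors CRY1 and PER1 fell by 0.26 and 0.17, TIMELESS fell by 0.22, and NR1D2, a nuclear receptor of the clock, rose by 0.17. With scaling to exon event reads CRY1, PER1 and NR1D2 had -0.39, -0.27 and 0.26. With inclusion reads halved these genes had -0.20, -0.11 and 0.13. Their mean levels in Control were low, at 1.04, 0.86 and 0.96, and the sizes of their differences depended on such settings. PER1 did not pass without Control replicate 2, DFMO replicate 1 or DFMO replicate 2 (-0.14, -0.15 and -0.16), and the number that fell was 2 without Control replicate 2 or DFMO replicate 1. Of 20 stress granule genes 18 were measured, 3 rose, 3 fell and 12 did not pass (median -0.01). USP10, a partner of the granule protein G3BP1, fell by 0.28, the mRNA-binding protein ELAVL1 fell by 0.22, and PABPC4 and ATXN2L rose by 0.23 and 0.16. Without the coverage-score filter the USP10 difference was -0.16.

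**Figure D3:**
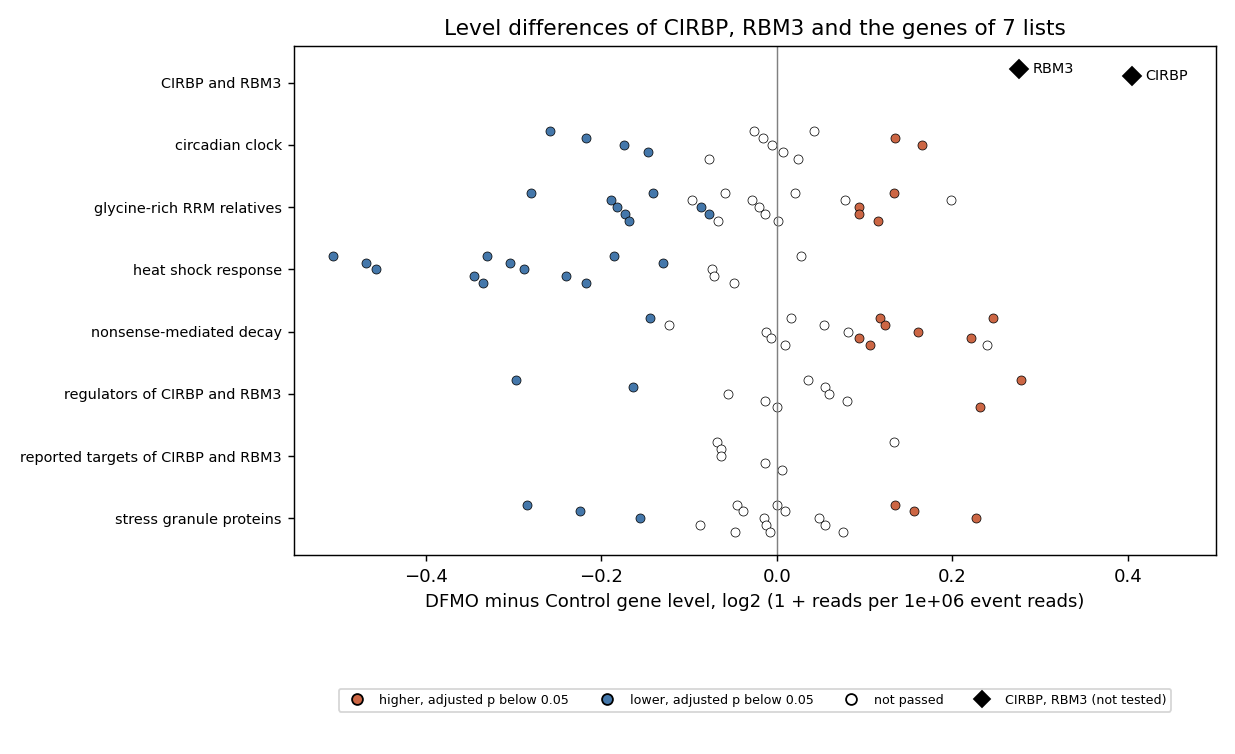
Level difference (DFMO minus Control, log2 of 1 plus reads per 1e+06 event reads) of CIRBP and RBM3 (diamonds, not tested) and of each measured gene of the 7 lists (circles, filled where the adjusted p was below 0.05). CIRBP lies at 0.40 and RBM3 at 0.28, the heat shock genes reach down to -0.51, and the other lists lie on both sides of 0.

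In the same lists, 8 events passed the event test, 4 higher and 4 lower, where 2.96% of the 16348 events tested in the whole table passed (3.45% of exons, 3.8% of introns, 1.16% of acceptors and 2.28% of donors). HNRNPA2B1, an hnRNP, had a 136-nt exon (chr7:26190993-26191128) at 54.6% ± 2.96 in Control and 69.0% ± 1.64 in DFMO (SD, n = 3 each). A 54-nt exon of ATXN2 (chr12:111464662-111464715), a stress granule protein, was at 51.3% ± 8.14 and 73.0% ± 5.98. A 236-nt exon of CSNK1D (chr17:82246198-82246433), a kinase of the clock, was at 17.1% ± 2.42 and 4.998% ± 1.53. A 330-nt exon of UBAP2L (chr1:154263107-154263436), a granule protein, was at 56.7% ± 1.26 and 45.6% ± 2.10.

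An intron of EWSR1 (chr22:29288787-29291561), an RNA-binding protein of the FET family, was at 14.6% ± 5.41 in Control and 24.7% ± 1.64 in DFMO (SD, n = 3 each). The EWSR1 call was lost without Control replicate 1, Control replicate 2, DFMO replicate 1 or DFMO replicate 2 (9.81, 7.68, 9.57 and 9.87 points) and without the filter on the mean percent. The ATXN2 call was lost without Control replicate 1, DFMO replicate 1 or DFMO replicate 2 (17.1, 20.7 and 19.3 points). That of UBAP2L was lost without DFMO replicate 1 (-10.4 points). Without the variance trend none of the 6 events named here, that of CLK1 included, was called. Over the lists, the number higher was 1 without Control replicate 1, DFMO replicate 1 or DFMO replicate 2.

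The genes with level profiles most like those of CIRBP and RBM3 were named by the Euclidean distance over the 6 libraries, each profile less its own Control mean, among 1160 genes with a mean level of at least 3. For CIRBP they were BSG, EEF1A2, IDS, DGCR6 and NOMO1, with distances from 0.0839 to 0.0989 and differences from 0.38 to 0.42. For RBM3 they were PRKAR1A, HDLBP, ATP6AP1, CYBA and RPL30, with distances from 0.0442 to 0.0547 and differences from 0.25 to 0.29. RBM3 stood at rank 71 in likeness to CIRBP, and CIRBP at rank 239 in likeness to RBM3.

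Depth was similar between the groups, with 77648922 to 103250467 event reads per library in Control and 82918379 to 100005273 in DFMO. The libraries carried the markers of noradrenergic neuroblastoma: 12 of 12 genes had reads, and their summed level was 1755 to 1801 RPM in Control and 1997 to 2006 in DFMO. The 7 mesenchymal markers summed to 54.7 to 55.3 and 51.9 to 57.6, and the 7 markers of other cell types to 0.349 to 0.753 and 0.800 to 1.11, with LYZ and PECAM1 at 0. The noradrenergic sum was higher with DFMO as the CIRBP and RBM3 levels were, and its part in those differences was not tested.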

How the data were processed

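RNA from SKNBE2 cells, 3 Control and 3 DFMO libraries, was sequenced as stranded libraries, per the labels' protocols. The authors deposited a table of percent inclusion for each splicing event, with a quality text that holds junction reads and a coverage score. The genome build was GRCh38, per the submitters' processing notes. No source used here names the aligner or the quantifier. Recomputed from the reads, 100% of the deposited percents lay within 0.5 points. Depth was 77648922 to 103250467 event reads per library, in which a read can count in several events. The variance between replicates was 2.02 to 2.36 times that of counting, so intervals for counting error alone are too narrow.

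The gene level was the mean, over exon events scored LOW or better in all 6 libraries, of log2(1 + reads per 1e+06 event reads of all classes). It is no gene count, and a fold on this scale understates changes of low genes. Levels were fitted with limma 3.58.1 (robust, with trend) in R 4.3.3. Events were fitted with limma on the log2 odds of inclusion (0.5 added to both read numbers), with a trend on counting variance, for at least 10 reads per library and a mean percent of 5 to 95. P values were two-sided and Benjamini-Hochberg adjusted over all genes, or within each event class. Events were called at an adjusted p below 0.05 and at least 10 points. The first row of each paired splice-site choice mirrors the other and was left out, a rule set after the table was seen.

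Sequences came from GENCODE release 29 transcripts and RefSeq promoters (both genes matched). Junction reads came from the quality text. The members and lists were chosen with earlier results of these data known. Named were both members, HNRNPH1, CLK1, CLK4, SRSF5, SP1 and RTN3, and per list up to 4 genes that passed and up to 3 called events, by size. UBAP2L, beyond that limit, was named after its value was seen. Of the called list events, 1 gene's are counted but not reported here. The 5 genes nearest each member were named by profile distance. Alternatives were other scaling, pseudocount, filters, offsets, variance trend, intron events, a replicate block and leaving out each library; scaling to exon event reads was added after the data were seen. Replicate numbers carry no stated pairing, and the block is given with the alternatives.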

Additional observations from a re-analysis of the deposited data

How the results depend on the processing

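The CIRBP level difference kept its sign under all 13 alternatives, from 0.37 to 0.54, and was highest from intron events (0.54). That of RBM3 ranged from 0.26 to 0.30. The number of member events without overlap was 8 to 14 when 1 library was left out, with 14 without Control replicate 3. Replicate numbers did not pair the libraries: the deviations of same-numbered libraries correlated at 0.000377, 0.0128 and -0.0192. With the replicate block the level differences were 0.40 and 0.28, 17 list genes rose and 31 fell, 4 list events were higher and 4 lower, and 9 member events moved the same way within all 3 numbers. Over the other settings 12 to 23 list genes rose and 26 to 31 fell. Without the variance trend 0 list events were called higher and 0 lower by limma, with 19 higher and 10 lower at an unadjusted p below 0.05. Without the filter on the mean percent 2 were called higher. With 1 library left out, 1 to 5 were called higher and 3 to 5 lower. HNRNPH1 changed sign with median-of-ratios scaling (0.0079), exon event scaling (0.0027) and without Control replicate 3 (0.0078; -0.026 to 0.0078 with 1 library left out). CLK4 did so with inclusion reads halved (-0.00041), with no score filter (-0.0031), without Control replicate 3 (-0.0049) and without DFMO replicate 2 (-0.016; -0.016 to 0.011 with 1 library left out). The cause was not tested. The depth of 46 to 86 reads at the CIRBP distal junction and 32 to 51 at RBM3 exon 3a limits those shares.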
